A study of Homo sapiens with 6 samples.

Results

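The 7 insulin-like growth factor binding protein genes, IGFBP1 to IGFBP7, and the 3 receptor genes IGF1R, IGF2R and INSR were examined as 10 of the 58174 genes listed in an RNA-seq data set of A549, a widely used human cell line that originated from a lung adenocarcinoma. The genes were found by their symbols, and the set was chosen by measured values, since the differences of several of them between these libraries were known. The differences of the 10 genes between the groups are therefore given as values with their errors and without p-values. Which of them were called in the fit over all genes is given once, as a description, and nothing is concluded from it.

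The libraries were made from polyA-selected RNA of parental A549 cells (Ctrl) and of A549 cells in which the MIR21 locus had been deleted by Cas9 with paired guide RNAs (MIR21-KO), with 3 libraries per group. The comparison addresses which transcripts differ when MIR21, the gene of the oncogenic microRNA miR-21, is deleted. All cells were grown in DMEM with fetal bovine serum and were harvested 48 h after seeding. MIR21-KO cells were grown from single sorted cells, the number of clones behind the 3 libraries is not stated, and the deletion and the passage through a single cell cannot be told apart. The study calls its samples independent, whereas the labels only number the libraries and do not say what separates them, so errors and p-values cover the spread between these libraries.

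Levels are given in FPKM, a measure of fragments scaled to gene size and sequencing depth, and behind them lay 10631667 to 14345209 reads per library. With 3 reads a gene of 1 kb reached 0.219 to 0.279 FPKM, and this floor covers counting error only. MIR21 itself was listed at 0 in all 6 libraries, and polyA libraries do not capture a mature miRNA, so that its values do not check the labels. Of the epithelial markers 5 of 5 reached a mean of 1 FPKM in at least one group, although EPCAM was at 1.19 ± 0.523 FPKM in Ctrl and at 0.695 ± 0.288 FPKM in MIR21-KO cells, with sums of 1194 to 1288 FPKM in Ctrl and 776 to 1106 FPKM in MIR21-KO libraries. CDH1, the epithelial cadherin, was lower in MIR21-KO cells with 2.86 against 8.18 FPKM, and KRT18 had 422 against 673 FPKM. KRT8 had 414 against 484 FPKM with overlapping values. KRT19 went the other way with 109 in MIR21-KO against 88.3 FPKM in Ctrl cells, also overlapping. Of the fibroblast markers 2 of 6 (COL1A1 and LUM) reached 1 FPKM, with sums of 5.41 to 5.85 and 4.88 to 7.18 FPKM and COL1A2 at 0, and of the blood cell markers 0 of 3 did, with sums of at most 0.0414 and 0.101 FPKM and CD3E at 0. The part of these shifts in the values below was not tested. In bulk RNA, fewer cells that express a gene and less RNA per cell cannot be told apart.

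Insulin-like growth factors are secreted peptides that signal through IGF1R, a receptor tyrosine kinase closely related to the insulin receptor INSR, whereas IGF2R carries IGF2 to lysosomes for degradation. Most IGF in body fluids is held by binding proteins, which limit access to the receptor, and proteases that cut the binding proteins set the ligand free. Several binding proteins also act on adhesion, migration and survival without binding IGF, and they are often altered in lung and other carcinomas.

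All 10 mRNAs were detected in at least one group, and the levels spanned a wide range. IGFBP4 was by far the most abundant, with 1619 ± 56.6 FPKM in Ctrl and 2658 ± 372 FPKM in MIR21-KO cells (SD, n = 3 each), which placed it at rank 9 and rank 7 of 11719 protein-coding genes tested. In Ctrl cells it was followed by IGFBP6, IGFBP7, IGF1R, IGFBP3, IGF2R, IGFBP1, IGFBP2, INSR and IGFBP5, where IGF1R and IGFBP3 as well as IGFBP1 and IGFBP2 had overlapping ranges. In MIR21-KO cells the order was IGFBP4, IGFBP7, IGFBP6, IGF1R, IGFBP5, IGFBP3, IGF2R, IGFBP2, INSR and IGFBP1, with overlapping ranges for IGFBP7 and IGFBP6 and for IGFBP3 and IGF2R. Between the groups IGFBP5 thus moved from the lowest position to the middle, and IGFBP1 from position 7 to the lowest.

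**Figure D1:**
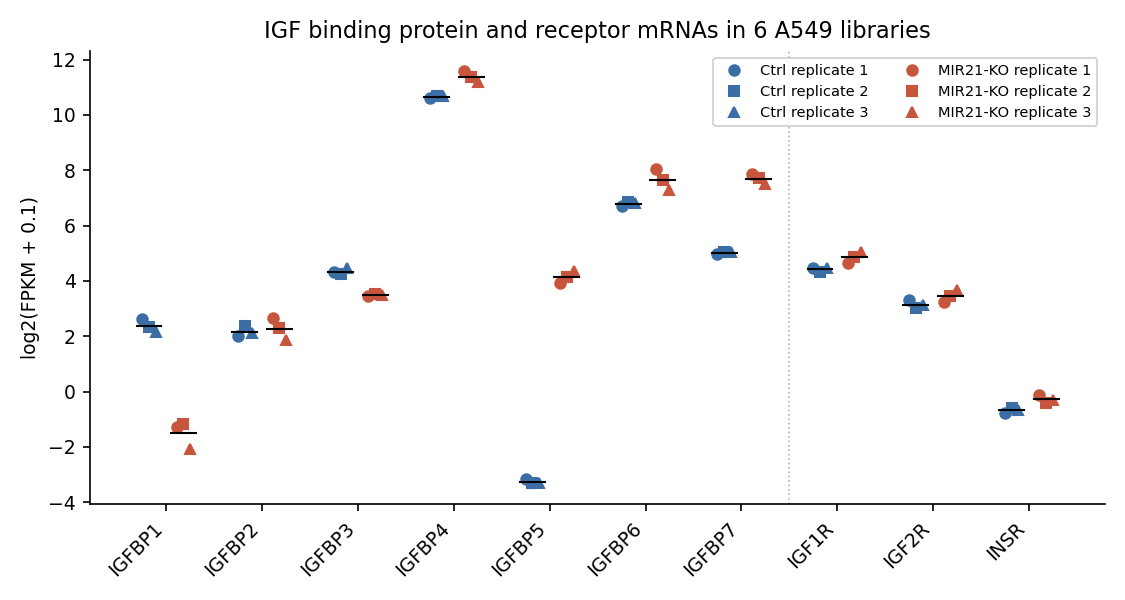
Level of the 10 mRNAs as log2(FPKM + 0.1) in the 3 Ctrl libraries (blue) and the 3 MIR21-KO libraries (red), with 1 symbol per replicate and black lines at the group means. IGFBP5 lies near the bottom of the scale in Ctrl libraries and at 15.1 to 20.2 FPKM in MIR21-KO libraries, IGFBP1 moves the opposite way, and the 3 receptors to the right of the dotted line differ little.

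Fold changes are given as log2 of FPKM + 0.1, MIR21-KO over Ctrl, with the standard error of a limma fit, and they understate the change of genes near 0. At a false discovery rate (FDR) under 0.01 over 16006 tested genes, 5 of the 10 genes were called (IGFBP4, IGFBP5 and IGFBP7 higher, IGFBP1 and IGFBP3 lower), beside 16.0% of all tested genes (7.66% higher and 8.38% lower). The values of the groups did not overlap for 8 of the 10 genes, 6 higher and 2 lower, beside 48.1% of all tested genes. The median log2 fold change was 0.40 for the 10 genes and -0.02 for all tested genes. All 10 genes passed the filter of a mean of 0.5 FPKM, but IGFBP5 passed it only through its MIR21-KO level and IGFBP1 only through its Ctrl level. Of the 7 binding proteins 5 were called, and of the 3 receptors 0.

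The seed of miR-21-5p, bases 2 to 8, and the matches to it in the 3' UTRs of the members are shown first, since MIR21 was the deleted gene. Let-7a-5p is shown beside it because IGF1R, IGF2R and INSR hold matches to its seed. The study also measured let-7 and reported higher levels of the let-7 family in MIR21-KO A549 cells. Mature sequences are those of RefSeq (GRCh38.p14), and windows of 30 bases were read from GENCODE 29 transcripts on GRCh38, 5' to 3' on the mRNA strand. Capitals mark the seed or the match to it.
miR-21-5p: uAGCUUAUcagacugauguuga
IGFBP3: tatttctgaggATAAGCTctttaaaggcaa
INSR: ttcctgttcggATAAGCTggtagctaccta
let-7a-5p: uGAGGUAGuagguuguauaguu
IGF1R: caaacatttatCTACCTCActcttattttt
IGF2R: agccccttcttCTACCTCttccacctctgg
INSR: ttcagcacagtCTACCTCAgtgtattgtta
The first 2 windows lie at chr7:45912944-45912973 (minus strand) and chr19:7115735-7115764 (minus strand). The let-7 windows lie at chr15:98960050-98960079 (plus), chr6:160111273-160111302 (plus) and chr19:7114645-7114674 (minus).

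In the longest annotated 3' UTR of each gene, searched on the mRNA strand only, the miR-21-5p heptamer ATAAGCT was found once in IGFBP3 and once in INSR, in both cases without the adenine that would make an 8mer. These were 2 of the 10 members, and 10.6% of 11658 tested genes with a 3' UTR of at least 30 bases hold the heptamer. The other members held no 7mer or 8mer match to miR-21-5p, IGFBP5 included, whose 3' UTR of 4646 bases is long, and 20.6% of the genes with a 3' UTR of similar length hold one. The let-7 heptamer CTACCTC was found in all 3 receptors and in none of the 7 binding proteins, against 12.6% of tested genes. The receptors have long 3' UTRs, and the heptamer is held by 31.8%, 30.4% and 25.2% of genes with a 3' UTR of similar length to that of IGF1R, IGF2R and INSR, against 2.3% to 24.3% for the binding proteins. Since let-7 was chosen with these matches known, nothing is read from their number. The heptamer was part of an 8mer in IGF1R and INSR, and IGF1R held 2 further matches, another heptamer and a match of bases 2 to 7 followed by adenine. A match is a description of the letters and does not show a site in use. Of the members with a miR-21-5p match, IGFBP3 was lower in MIR21-KO cells. INSR had higher values without overlap, as 48.1% of all tested genes did not overlap in either direction. Its log2 fold change of 0.39 ± 0.254 was imprecise, from 63 to 117 reads per library. IGF1R and IGF2R, which hold let-7 matches as INSR does, had log2 fold changes of 0.41 ± 0.112 and 0.32 ± 0.133. Whether the matches play a part in these values was not tested.

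Among the binding proteins with higher mRNA levels in MIR21-KO cells, IGFBP5 differed most. IGFBP5 (ENSG00000115461, chromosome 2, 216672105 to 216695525, minus strand) encodes a binding protein that attaches to extracellular matrix and is known from bone and muscle. It was represented by 1, 0 and 0 reads in Ctrl replicates 1 to 3 and by 1329, 1379 and 1689 reads in MIR21-KO replicates 1 to 3, or 15.1, 17.5 and 20.2 FPKM. The mRNA was thus near the limit of detection in each Ctrl library, where 3 reads correspond to 0.0380 FPKM on average, and clearly present in each MIR21-KO library. The ratio of the pooled levels was 4207, with an exact 95% counting interval of 755 to 166210 that reflects the single Ctrl read, and the fitted log2 fold change was 7.40 ± 0.176. The fitted value depended on the constant added before taking logs and ranged from 4.20 with 1 FPKM to 10.9 in a fit of the recovered reads, both higher in MIR21-KO cells. Its error changed as well. It was 0.114 with 1 FPKM, 0.479 with 0.01 FPKM and 0.882 in the fit of the recovered reads.

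IGFBP7 (ENSG00000163453, chromosome 4, 57030773 to 57110385, minus strand) encodes a protein with low affinity for IGF that is secreted into the matrix. Its values were 31.5, 33.1 and 32.7 FPKM in Ctrl replicates 1 to 3 and 231, 209 and 182 FPKM in MIR21-KO replicates 1 to 3. Every MIR21-KO library lay far above every Ctrl library, with a ratio of group means of 6.40 and a log2 fold change of 2.67 ± 0.102. An antisense gene over the start of IGFBP7, listed as IGFBP7.AS1, differed alongside, with 3.90 ± 0.419 FPKM in Ctrl and 23.3 ± 1.81 FPKM in MIR21-KO cells. POLR2B, an RNA polymerase II subunit gene on the opposite strand whose end overlaps that of IGFBP7, had 27.4 ± 1.59 and 20.5 ± 2.18 FPKM. The strand setting used in counting is not given in the sources used here, so reads of overlapping partners cannot be told apart with certainty. At the start of IGFBP5 an antisense gene (AC007563.5) had 40 reads in all, each in a MIR21-KO library.

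IGFBP4 (ENSG00000141753, chromosome 17, 40443461 to 40457731, plus strand), a secreted binding protein that mainly inhibits IGF action, had 1554, 1657 and 1647 FPKM in Ctrl replicates 1 to 3 and 3048, 2619 and 2308 FPKM in MIR21-KO replicates 1 to 3. The groups did not overlap, and the ratio of means was 1.64 with a log2 fold change of 0.71 ± 0.132. This was the most deeply covered member, with 39196 to 91362 reads per library, so that counting error was small beside the spread of the MIR21-KO libraries. Its log2 fold change lay within 0.57 to 0.80 over all alternative settings.

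IGFBP6 (ENSG00000167779, chromosome 12, 53097436 to 53102345, plus strand), which prefers IGF2 over IGF1, had 104, 115 and 111 FPKM in Ctrl replicates and 261, 201 and 154 FPKM in MIR21-KO replicates 1 to 3. The groups did not overlap, but the MIR21-KO libraries spread widely and the log2 fold change was 0.87 ± 0.185. It was 1.06 when MIR21-KO replicate 3 was left out and 0.68 when replicate 1 was.

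IGFBP2 (ENSG00000115457, chromosome 2, 216632828 to 216664436, plus strand), a binding protein often raised in tumors, had 3.96, 5.07 and 4.23 FPKM in Ctrl replicates and 6.14, 4.87 and 3.53 FPKM in MIR21-KO replicates 1 to 3. MIR21-KO libraries were both the highest and the lowest, and the log2 fold change of 0.10 ± 0.209 was smaller than its error. Its sign changed when single libraries were left out, with -0.08 when MIR21-KO replicate 1 was left out and 0.31 when replicate 3 was left out.

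IGFBP1 and IGFBP3 were lower in MIR21-KO cells. IGFBP1 (ENSG00000146678, chromosome 7, 45888357 to 45893668, plus strand), a binding protein known as an insulin-repressed product of the liver, had 6.08, 4.95 and 4.29 FPKM in Ctrl replicates 1 to 3 and 0.311, 0.346 and 0.140 FPKM in MIR21-KO replicates 1 to 3. These values rested on 128, 88 and 97 reads against 7, 7 and 3 reads, so that each Ctrl library was far above each MIR21-KO library while the MIR21-KO level itself was imprecise. The ratio of pooled levels, Ctrl over MIR21-KO, was 19.2 with an exact 95% counting interval of 11.8 to 33.5, and the log2 fold change was -3.87 ± 0.282. With a constant of 1 FPKM the log2 fold change was -2.26.

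IGFBP3 (ENSG00000146674, chromosome 7, 45912245 to 45921874, minus strand), the main IGF carrier in serum and a growth-inhibitory protein in many cell types, had 19.7, 18.8 and 22.0 FPKM in Ctrl replicates and 10.8, 11.4 and 11.2 FPKM in MIR21-KO replicates 1 to 3. The groups were well apart with a ratio of means, Ctrl over MIR21-KO, of 1.81, and the log2 fold change was -0.85 ± 0.083. The MIR21-KO libraries differed by only 0.08 on the log2 scale, the narrowest range of the 10 genes in that group.

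**Figure D2:**
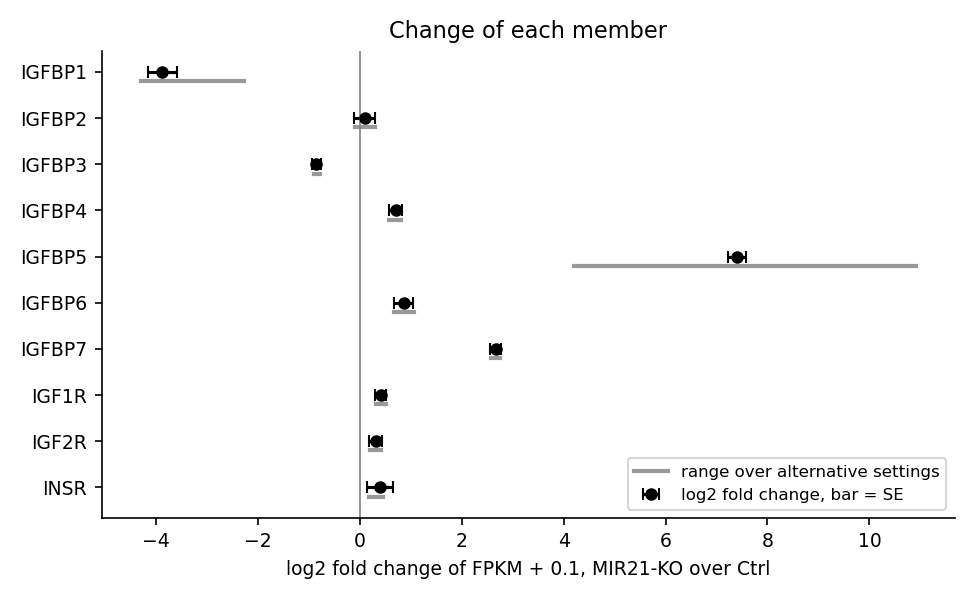
Log2 fold change of FPKM + 0.1, MIR21-KO over Ctrl, of each of the 10 genes (black points, bars are the standard error of the limma fit from 3 against 3 libraries), with grey lines for the range over the alternative settings. IGFBP1 and IGFBP5, which are near 0 FPKM in one group, have the widest ranges, and only the range of IGFBP2 includes 0.

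Summed over the 7 binding proteins, the level was 1791 ± 62.7 FPKM in Ctrl and 3105 ± 448 FPKM in MIR21-KO cells. IGFBP4 made up 90.4% ± 0.019 of the sum in Ctrl and 85.7% ± 0.437 in MIR21-KO cells (SD, n = 3 each). The share of IGFBP7 was 1.81% ± 0.019 and 6.70% ± 0.194, and that of IGFBP6 was 6.13% ± 0.107 and 6.54% ± 0.775. IGFBP3 held 1.12% in Ctrl and 0.364% in MIR21-KO cells, IGFBP1 0.287% and 0.0084%, and IGFBP5 0.0002% and 0.583%. IGFBP2 held 0.246% and 0.154%. The shares of IGFBP4 and IGFBP7 were very similar across the libraries of a group, whereas the share of IGFBP6 in MIR21-KO libraries ranged from 5.75% to 7.30%, on both sides of the Ctrl values. Without IGFBP4 the sum of the other binding proteins was 172 ± 6.15 FPKM in Ctrl and 447 ± 76.8 FPKM in MIR21-KO cells. These are shares of mRNA and not of secreted protein, which was not measured here.

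**Figure D3:**
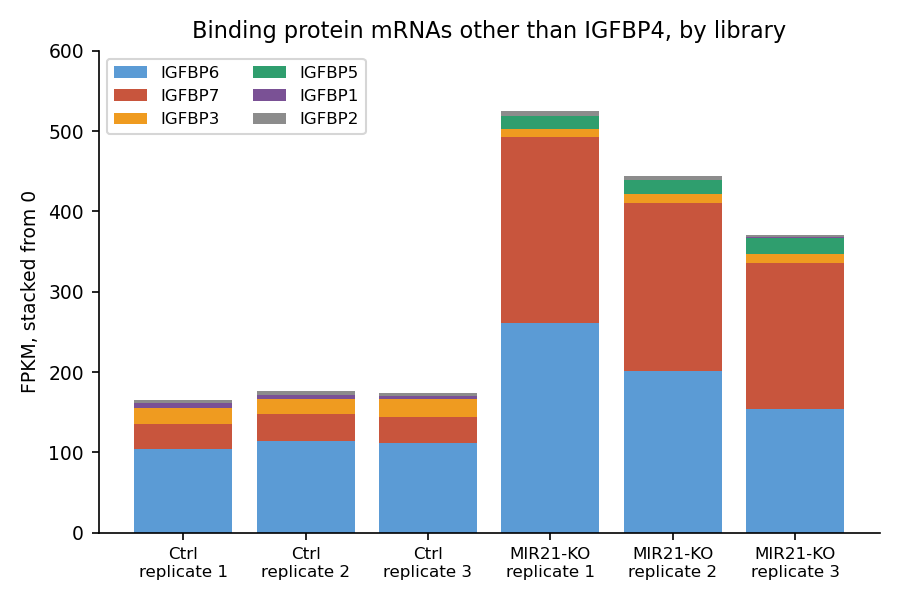
Stacked FPKM of the 6 binding proteins other than IGFBP4 in each of the 6 libraries, with bars starting at 0. The total is 165 to 176 FPKM in Ctrl libraries, mostly IGFBP6, and 371 to 525 FPKM in MIR21-KO libraries, where IGFBP6 and IGFBP7 have similar parts.

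The receptors differed less. IGF1R (ENSG00000140443, chromosome 15, 98648539 to 98964530, plus strand) had 22.2, 20.1 and 22.2 FPKM in Ctrl replicates and 24.9, 28.9 and 32.7 FPKM in MIR21-KO replicates 1 to 3. The groups did not overlap, with a ratio of means of 1.34 and a log2 fold change of 0.41 ± 0.112. It was 0.52 with MIR21-KO replicate 1 left out and 0.32 with replicate 3 left out.

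IGF2R (ENSG00000197081, chromosome 6, 159969099 to 160113507, plus strand) had 9.70, 7.93 and 8.69 FPKM in Ctrl and 9.35, 11.0 and 12.6 FPKM in MIR21-KO replicates. MIR21-KO replicate 1 lay within the Ctrl range, and the log2 fold change was 0.32 ± 0.133. INSR (ENSG00000171105, chromosome 19, 7112255 to 7294034, minus strand) was low throughout, with 0.489, 0.561 and 0.532 FPKM in Ctrl and 0.822, 0.649 and 0.708 FPKM in MIR21-KO replicates. Its groups did not overlap, with 63 to 117 reads per library. The log2 fold change of 0.39 ± 0.254 was imprecise, and its error depended on the fit. The error was 0.170 in a fit of the recovered reads and 0.111 in a limma fit without trend or robust fitting. In both groups IGF1R mRNA was the highest of the 3 receptors per gene length, at 21.5 ± 1.21 FPKM in Ctrl and 28.8 ± 3.88 FPKM in MIR21-KO cells, and INSR the lowest.

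The spread among the MIR21-KO libraries was not the same for all members. MIR21-KO replicate 1 was the highest and replicate 3 the lowest for IGFBP2, IGFBP4, IGFBP6 and IGFBP7, with differences of replicate 3 minus replicate 1 of -0.78, -0.40, -0.76 and -0.35 on the log2 scale. The opposite held for IGFBP5, IGF1R and IGF2R, with differences of 0.41, 0.39 and 0.43. For all tested genes the median of this difference was -0.03, and 5% to 95% of genes lay between -0.88 and 0.93. The libraries also differed with gene length and GC content: in the 3989 genes richest in GC, MIR21-KO replicate 1 deviated by a median of 0.15 and replicate 3 by -0.17 from the group mean, and in the 3989 longest genes, of 6515 bases or more, by -0.12 and 0.12. IGF1R, IGF2R and INSR, with 13509, 14911 and 10451 bases, are among the longest. The difference of INSR was -0.19, from 117 reads in MIR21-KO replicate 1 and 96 in replicate 3, so that its sign is uncertain. IGFBP6, IGFBP4 and IGFBP2, with 64.1%, 62.5% and 57.1% GC, are among the genes richest in GC. IGFBP7, with 52.1% GC and 1930 bases, and IGFBP5, with 51.9% GC and 6442 bases, lie in neither set. With the length and GC trends of each library removed, an alternative chosen after seeing the data, IGFBP6 had a log2 fold change of 0.71 ± 0.067, IGF1R of 0.37 ± 0.061 and IGFBP4 of 0.57 ± 0.056, each with a smaller error than without the removal. The error of INSR was larger, at 0.267 against 0.254. The trends were fitted to these same values, which by itself tends to lower the errors. Whether the trends underlie the spread was not tested.

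**Figure D4:**
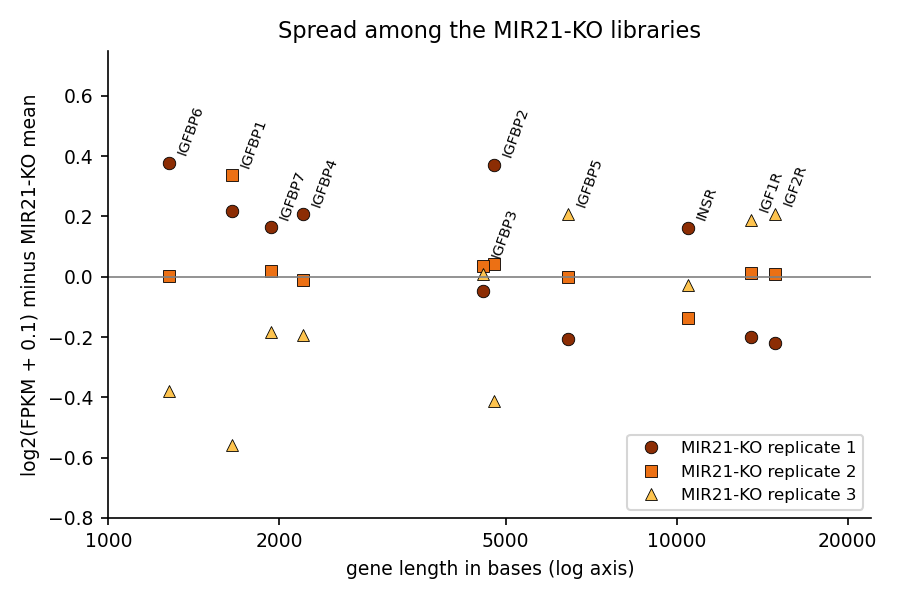
Deviation of each MIR21-KO library from the MIR21-KO mean, as log2(FPKM + 0.1), for the 10 genes against gene length in bases on a log axis. Replicate 1 lies above replicate 3 for IGFBP1, IGFBP2, IGFBP4, IGFBP6, IGFBP7 and INSR and below it for IGFBP3, by little, and for IGFBP5, IGF1R and IGF2R. The values of INSR, with 10451 bases, rest on 117 reads in replicate 1 and 96 in replicate 3.

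Among the binding protein genes, some are neighbours in the genome. IGFBP2 and IGFBP5 lie tail to tail on chromosome 2 with 7.67 kb between them, and the values of IGFBP2 overlapped between the groups whereas those of IGFBP5 did not. Within 500 kb, MARCH4, a membrane ubiquitin ligase gene, rose from 4.44 to 6.72 FPKM (log2 fold change 0.59 ± 0.099, limma FDR = 0.00542). SMARCAL1, a DNA repair helicase gene, rose from 3.85 to 5.37 FPKM (0.47 ± 0.091, limma FDR = 0.00904). Whether the calls of MARCH4 and SMARCAL1 hold under the alternative settings was not examined. XRCC5 and RPL37A were not called, with log2 fold changes of -0.28 ± 0.067 (limma FDR = 0.0196) and 0.57 ± 0.176 (limma FDR = 0.0472), and TNP1 was listed at 0. IGFBP1 and IGFBP3 lie tail to tail on chromosome 7 with 18.6 kb between them, and both were lower in MIR21-KO cells. In their surroundings ADCY1 had 0.287 FPKM in Ctrl and 0.297 FPKM in MIR21-KO cells, too low to be tested, and RP11.638I8.1 was listed at 0.

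To see which mRNAs had the most similar pattern, the correlation of log2 values over the 6 libraries was computed for 10807 protein-coding genes with a mean of 1 FPKM or more. The 6 points fall into the 2 groups, so that a high r is reached by many genes with a clear group difference. For IGFBP5, 227 genes had r above 0.99, among them TGM2 (transglutaminase 2, r = 0.99986, 105 and 536 FPKM in Ctrl and MIR21-KO cells) and DNER (r = 0.99975, 2.92 and 8.02 FPKM). For IGFBP1, 158 genes did, led by FOSL1 (a subunit of the AP-1 transcription factor, r = 0.9993, 33.6 and 14.8 FPKM), EZH2 (a histone methyltransferase, r = 0.99863, 14.0 and 9.92 FPKM) and BCCIP (r = 0.99845, 22.2 and 12.5 FPKM).

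The other genes of the IGF and insulin pathway were taken from 7 lists with 73 genes, none of them a member. Of these, 58 were tested and 14 were called, 10 higher and 4 lower in MIR21-KO cells, with a median log2 fold change of 0.15. Of all tested genes 16.0% were called, 7.66% higher and 8.38% lower, and these shares stand beside each list below. The lists were chosen with earlier results of these data known. Counts and FDRs of their genes are therefore given as a description, and nothing is concluded from the counts. The ligands were scarcely expressed, and 0 of 4 genes of that list passed the filter. IGF2 had 0.653 ± 0.179 FPKM in Ctrl and 0.0408 ± 0.0171 FPKM in MIR21-KO cells, from 60, 30 and 65 reads against 5, 3 and 2 reads. Each Ctrl library thus lay above each MIR21-KO library, with a ratio of pooled levels of 16.2 (exact 95% counting interval 8.58 to 34.5), Ctrl over MIR21-KO. In fits that admitted IGF2, its log2 fold change was -2.39, a size that the added 0.1 FPKM reduced. The limma FDR was 0.00551 without a filter and 0.000346 among genes with at least 10 reads on average. IGF2 reached that average only through its Ctrl reads. IGF1 had 0 reads in Ctrl and 1 read in MIR21-KO libraries, and INS had 0. IGFALS, the serum partner of IGF complexes, had 0, 1 and 0 reads in Ctrl and 6, 3 and 2 reads in MIR21-KO replicates. Its means were 0.0131 and 0.118 FPKM.

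Among the proteases that act on binding proteins and their inhibitors, 4 of 9 tested genes rose and 1 fell. Of all tested genes, 7.66% were called higher and 8.38% lower. HTRA1, a secreted serine protease with an IGFBP-like domain, had 36.6, 34.0 and 37.9 FPKM in Ctrl and 205, 176 and 156 FPKM in MIR21-KO replicates (log2 fold change 2.30 ± 0.114, limma FDR = 7.5e-05). The complement proteases C1S and C1R, of which C1S can cut IGFBP5, rose together, C1S from 18.5 ± 1.30 to 62.8 ± 4.84 FPKM (1.76 ± 0.091, limma FDR = 7.9e-05) and C1R from 13.4 ± 0.492 to 49.6 ± 9.87 FPKM (1.86 ± 0.143, limma FDR = 0.000315). PAPPA, the metalloprotease that cuts IGFBP4 and IGFBP5, had 33.5, 26.8 and 30.6 FPKM in Ctrl and 33.8, 46.2 and 67.7 FPKM in MIR21-KO replicates. The lowest MIR21-KO value was barely above the highest Ctrl value, and PAPPA was not called (0.65 ± 0.241, limma FDR = 0.0848). The stanniocalcins, which inhibit PAPPA, differed in opposite directions: STC1 rose from 3.40 ± 0.550 to 10.2 ± 1.68 FPKM (1.55 ± 0.163, limma FDR = 0.000986), whereas STC2 fell from 9.37 ± 0.496 to 4.77 ± 0.223 FPKM (-0.96 ± 0.085, limma FDR = 0.000503). HTRA1, C1S, C1R, STC1 and STC2 were called under all settings.

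Of the other genes with an IGFBP domain, 2 of 8 tested genes rose and 0 fell, beside 7.66% and 8.38% of all tested genes. WISP1, a matricellular protein, had 1.12 ± 0.020 FPKM in Ctrl and 12.1, 13.8 and 17.3 FPKM in MIR21-KO replicates, with a log2 fold change of 3.56 ± 0.143 (limma FDR = 4.2e-05). Its relative CTGF rose from 9.69 ± 0.127 to 21.1 ± 1.19 FPKM (1.12 ± 0.073, limma FDR = 0.00017). Both were called under all settings. LRP1, an endocytic receptor that binds IGFBP3, rose from 3.59 ± 0.282 to 6.78 ± 1.13 FPKM (0.89 ± 0.142, limma FDR = 0.00466). In its list of receptor relatives 1 of 2 tested genes rose and 0 fell, beside 7.66% and 8.38% of all tested genes.

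Downstream of the receptors, 0 of 10 tested adaptors and substrates rose and 3 fell, beside 7.66% and 8.38% of all tested genes. IRS1, a main docking protein of IGF1R and INSR, had 17.9, 14.6 and 16.6 FPKM in Ctrl and 8.64, 9.82 and 11.0 FPKM in MIR21-KO replicates (log2 fold change -0.73 ± 0.119, limma FDR = 0.00499). IRS2 was at 2.30 ± 0.204 and 2.29 ± 0.331 FPKM with overlapping values (-0.01 ± 0.151, limma FDR = 0.966). GRB10 and GRB14 bind the activated receptors and dampen their signal. GRB10 fell from 9.56 ± 0.801 to 4.83 ± 0.775 FPKM (-0.98 ± 0.132, limma FDR = 0.00252) and GRB14 from 4.77 ± 0.596 to 0.908 ± 0.137 FPKM (-2.28 ± 0.164, limma FDR = 0.000242).

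Of the PI3K-AKT-mTOR arm 1 of 18 tested genes rose and 0 fell, beside 7.66% and 8.38% of all tested genes. PIK3R3, a regulatory subunit of PI3K, was the gene that rose, from 0.824 ± 0.107 to 2.03 ± 0.228 FPKM (log2 fold change 1.20 ± 0.174, limma FDR = 0.00315). Of the inhibitors and genes of receptor turnover, 2 of 11 rose and 0 fell, beside 7.66% and 8.38% of all tested genes. CBLB, a ubiquitin ligase, rose from 2.16 ± 0.077 to 5.31 ± 0.783 FPKM (1.25 ± 0.131, limma FDR = 0.000951), and SOCS2, a suppressor of cytokine and growth hormone signalling, from 3.07 ± 0.194 to 4.93 ± 0.312 FPKM (0.66 ± 0.103, limma FDR = 0.00409). Without MIR21-KO replicate 2, LRP1, IRS1, GRB10, SOCS2 and PIK3R3 lost their calls, with limma FDRs of 0.0262, 0.0261, 0.0165, 0.0275 and 0.0217. The first 4 of these also lost them without any 1 of the Ctrl libraries, and PIK3R3 without Ctrl replicate 1 or 3 or MIR21-KO replicate 1 (limma FDRs of 0.0157, 0.0166 and 0.0108).

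**Figure D5:**
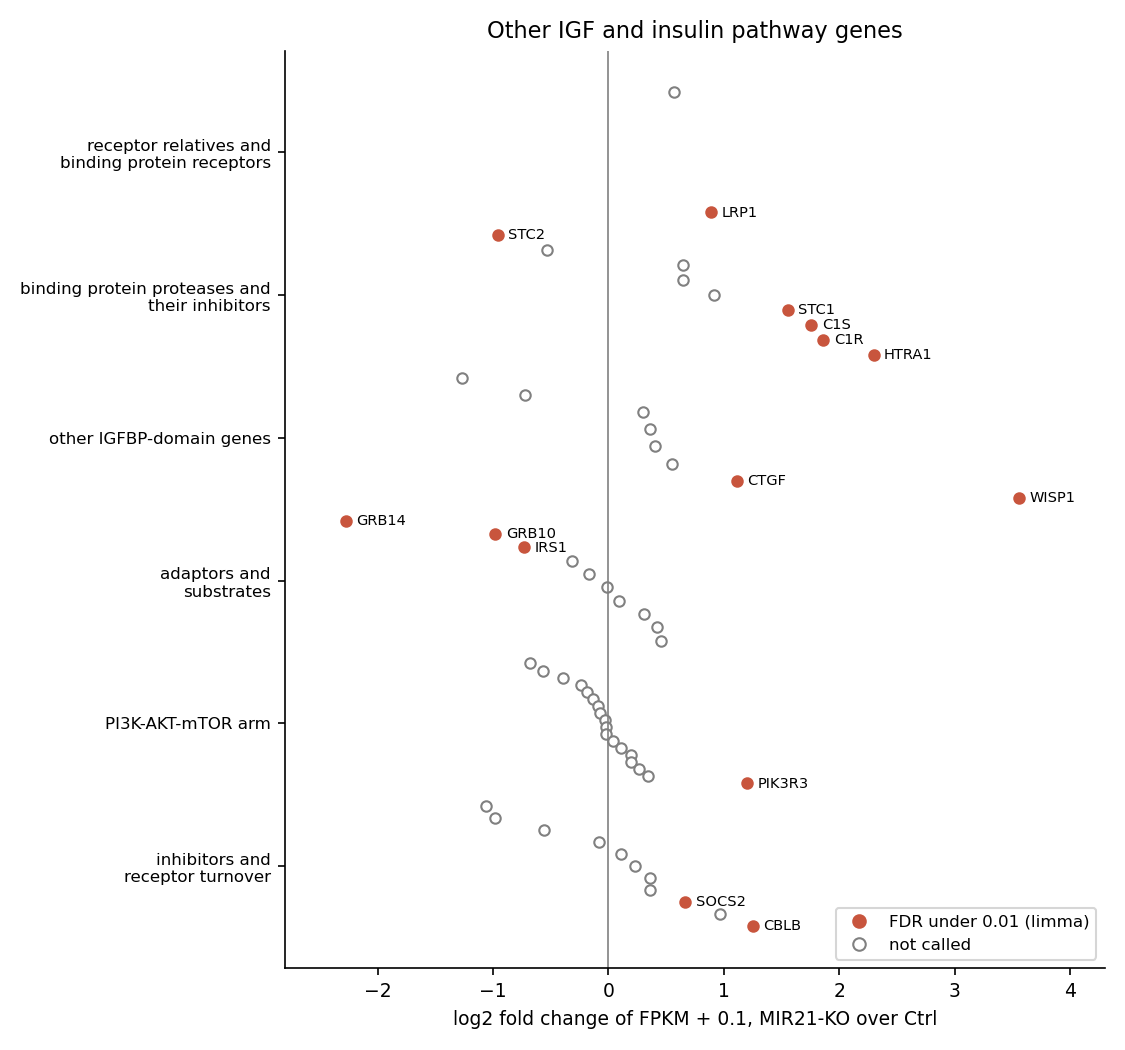
Log2 fold change of FPKM + 0.1, MIR21-KO over Ctrl, of the 58 tested pathway genes other than the 10 members, sorted within 6 lists. Filled and named points are the 14 genes at a limma FDR under 0.01, of which 10 lie right of 0 and 4 left of it.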

How the data were processed

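PolyA RNA-seq of A549 cells was analysed, with 3 Ctrl and 3 MIR21-KO libraries grouped by sample title. The authors deposited FPKM per gene and library; their own fold change, p-value and FDR columns were not used. The submitters' processing notes name cutadapt 1.14, HISAT2 2.1.0, SAMtools 1.5, featureCounts 1.5.3, edgeR 3.18.1 and hg38; strand setting and annotation release are not given in the sources used here. Reads were recovered from the steps of FPKM times gene length, and 100% of values came out whole (tolerance 0.1 read).

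For the 16006 genes averaging 0.5 FPKM or more, log2(FPKM + 0.1) was fitted by limma 3.58.1 (trend, robust) in R 4.3.3, two-sided, with Benjamini-Hochberg FDR under 0.01. The procedure was tested on simulated data. Identifiers matched GENCODE 29 for 57836 of 58174 genes. Named were all members, 10 fixed pathway genes, up to 4 largest called changes per list, neighbours within 500 kb, genes overlapping members and the 3 most similar genes of the members with the largest rise and fall; some of these are not reported here. Members and lists were chosen with earlier results of these data known. Alternatives were other pseudocounts, filters and scalings, a replicate block, leaving out each library, voom on recovered reads, and no trend or robust fitting.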

Additional observations from a re-analysis of the deposited data

How the results depend on the processing

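Of 16006 genes 2568 were called, and of the pathway genes 14. Leaving out single libraries gave 784 to 3418 called genes, 4 to 6 called members and 9 to 24 pathway genes. The replicate block gave 651 genes, 4 members and 9 pathway genes; deviations of libraries with the same number correlated at -0.171, -0.018 and -0.017, and the numbers were therefore not taken as pairs. Voom on recovered reads called 3496 genes and 22 pathway genes. With GC and length trends removed (chosen after seeing the data), 3960 genes, 7 members and 26 pathway genes were called. Without a filter on low values 29384 genes were tested, and 1810 of them and 4 members were called.

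IGFBP4 was lost without a filter, without trend or robust fitting, with the replicate block, without any Ctrl library and without MIR21-KO replicate 2; IGFBP6 was gained without MIR21-KO replicate 3, with at least 10 reads on average, with voom, with scaling by total reads and with GC and length trends removed, and IGF1R without MIR21-KO replicate 1 and with these trends removed. Without Ctrl replicates 1, 2 and 3 and MIR21-KO replicate 2, limma FDRs were 0.0174, 0.0219, 0.0219 and 0.0262 for LRP1, 0.0238, 0.0120, 0.0256 and 0.0261 for IRS1, 0.0148, 0.0105, 0.0149 and 0.0165 for GRB10, and 0.0210, 0.0207, 0.0167 and 0.0275 for SOCS2. PIK3R3 had 0.0157, 0.0166, 0.0108 and 0.0217 without Ctrl replicates 1 and 3 and MIR21-KO replicates 1 and 2. These 5 genes were also lost with the replicate block, LRP1 and IRS1 without a filter, and IRS1 without trend or robust fitting. The log2 fold change of IRS2 ranged from -0.10 to 0.10 when single libraries were left out, with 0.05 without Ctrl replicate 1. The median of all genes shifted by at most 0.04 under other scalings. The causes of these shifts were not tested. Depth limits IGFBP1, IGFBP5 and INSR most.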
